A study of Mus musculus with 2 samples.

Results

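The 40 genes described here encode the core engine of the cell cycle and its brakes: 12 cyclins, 5 cyclin-dependent kinases (CDKs), 6 CDK inhibitors, the CDC25 phosphatases and Wee1, the E2F transcription factors, the retinoblastoma (pocket) proteins and the DP partners. They were chosen by symbol, and all 40 had a row among the 23276 genes of the table. Values were FPKM, sequenced fragments scaled to transcript length and library size. Of the 40 members, 37 averaged 1 FPKM or more over the libraries, as did 11349 of all genes, and each of these 37 reached 1 FPKM in both libraries.

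Ventricles of mouse embryos at stage E12.5 were compared between wild-type (WT) embryos and embryos whose 2 alleles of the long non-coding RNA gene Fendrr had been knocked out by homologous recombination (KO). Embryos of both genotypes came from embryonic stem cells of a C57BL/6 x 129SV background through tetraploid complementation, a method in which the embryo proper grows from the stem cells and the tetraploid host mainly supplies extraembryonic tissue. How many stem cell lines were used is not given in the sources used here. For each genotype, 4 ventricles were pooled into 1 strand-specific library of total RNA depleted of ribosomal RNA. With 1 library per genotype no test is possible, and "lower" and "higher" describe these libraries only. The libraries were also read on separate runs with base calling done differently, so that an effect of the run and one of the genotype cannot be told apart.

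Passage through the cell cycle is driven by CDKs, which are active only when bound to a cyclin. D cyclins with Cdk4 or Cdk6 and E cyclins with Cdk2 phosphorylate the pocket proteins, which releases E2F factors to switch on genes of DNA replication, and cyclins A and B with Cdk1 then drive mitosis. In the embryonic ventricle cardiomyocytes still divide, and this machinery is largely shut down in them after birth.

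Low FPKM values fell on steps of whole reads. Among genes with 1 annotated transcript, 63.1% of WT and 63.6% of KO values worth 1 to 5 reads lay within 2% of a whole read number, against a median of 6.0% and 6.1% at other step sizes. The highest share at another step size was 34.9% and 34.3%. The steps put the depth at about 13100000 mapped reads in WT and 16300000 in KO. Reads per member and 95% counting intervals are estimates from these depths, and they cover counting error only, not the difference between embryos, pools or runs. The targeted gene checked no label: Fendrr had no row, and 1110050K14Rik, the symbol it had earlier, was listed at 0 in each library. The tissue label matched its markers by level, since 17 cardiomyocyte genes together summed to 28900 FPKM (WT) and 27847 FPKM (KO). Each was above 0.1 FPKM in both libraries, but so was every leukocyte and erythroid marker with a row, so that limit does not identify the tissue.

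As a set, the members lay slightly below their WT level. Of the 37 measured, 32 had a lower FPKM in KO and 5 a higher one, but the whole table was shifted the same way, with a median log2 ratio of -0.11. That ratio is log2((KO + 1)/(WT + 1)), with FPKM values, which makes the differences of low genes look smaller, and log2 ratios below are given relative to this median unless stated. On this footing 26 of 37 members lay below the median, where 50% of all genes lie, and the median of the members was -0.08. More abundant genes lay slightly lower: of 7268 with a mean of at least 5 FPKM, 3945 lay below it, with a median of -0.03. Of the 37 members, 28 reached that mean. The full range of the members was -0.53 to 0.27, and the central 95% of all genes lay between -0.53 and 0.60. The members thus reached the lower of these limits but stayed short of the upper one.

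Large differences were few. As deposited, 2 of 37 members, Ccnf and Cdc25c, stood 1.5-fold or more below WT in KO, against 3.60% of all genes, which is too near the background to set the members apart. No member was at least 1.5-fold higher, against 1.54% of all genes, and no member was 2-fold apart, against 0.855%. With the median of all genes brought to 0, no member was 1.5-fold lower, against 1.69% of all genes. Of the 37 members, 11 lay below the median of all genes by more than their counting interval, beside 22.1% of genes. Another 3, Ccng2, Cdk6 and Rb1, lay above it by more than that interval, beside 22.5%. Counting intervals narrow as reads increase, and these shares of all genes were not matched to the members for read number.

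**Figure D1:**
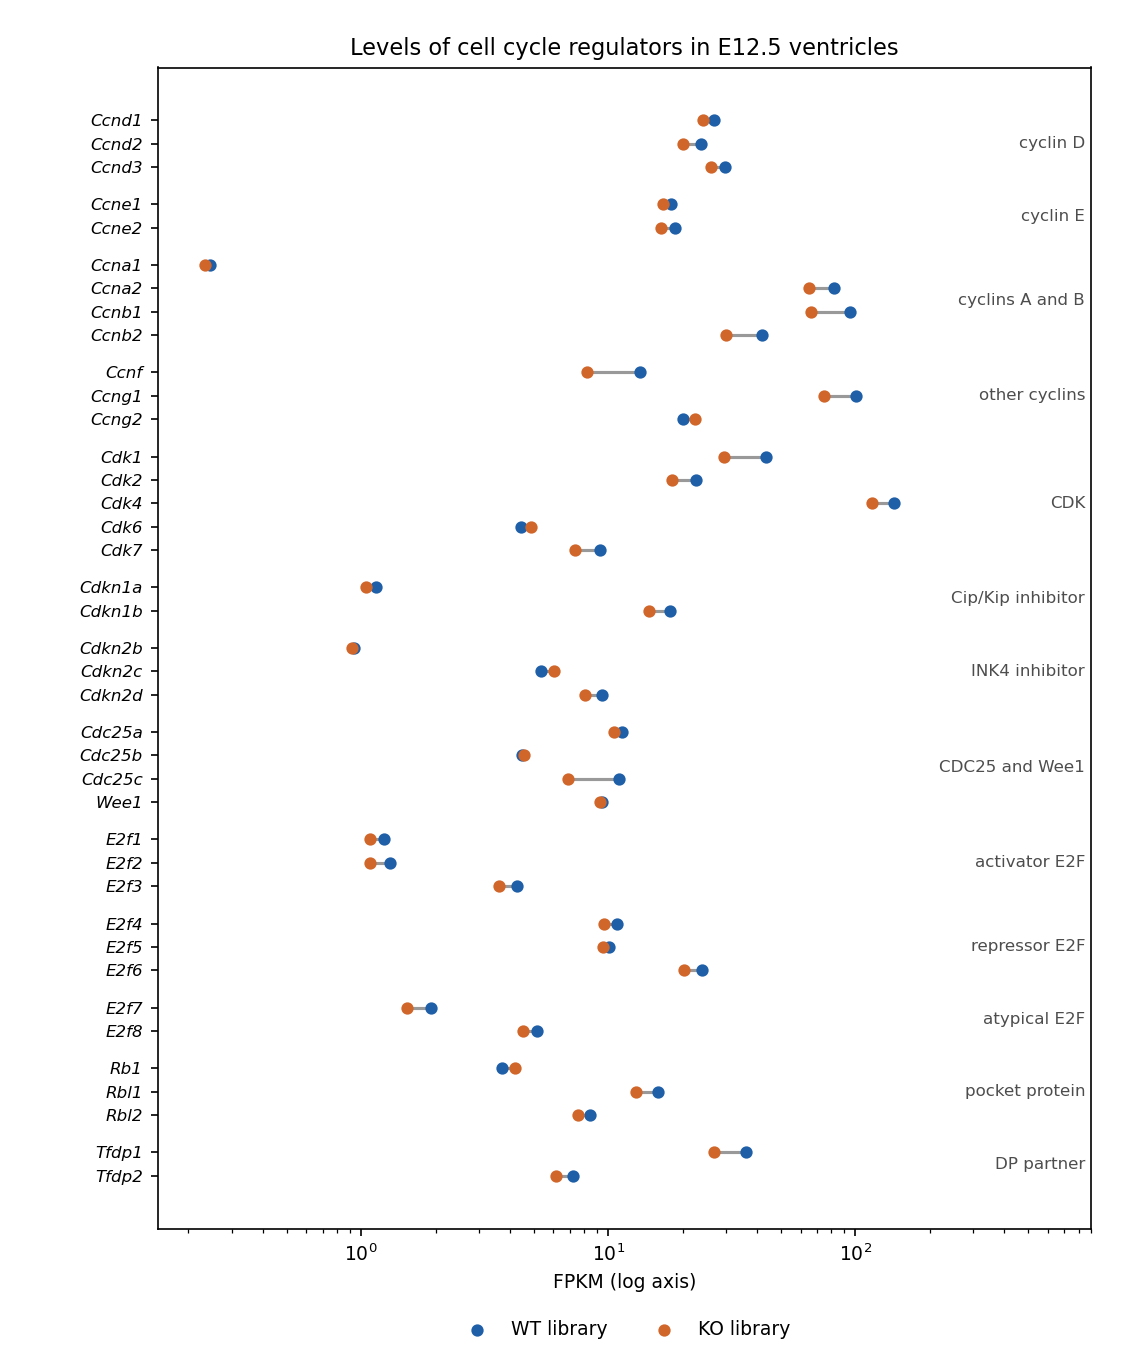
FPKM (log axis) of 39 members in the WT library (blue) and the KO library (orange), grouped by class, with a line joining the 2 values of a gene. Cdkn2a, listed at 0 in both, is not drawn. Levels span from 0.233 FPKM for Ccna1 to 143 FPKM for Cdk4, and the widest gaps are those of Ccnf and Cdc25c.

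The 5 members with the lowest ratios, Ccnf, Cdc25c, Cdk1, Ccnb1 and Ccnb2, from -0.53 to -0.36, were all assigned to the G2 phase and mitosis (G2/M). Ccng1 (-0.32) and Tfdp1 (-0.30), assigned to no phase, came next, before Ccna2 of G2/M (-0.22), while Cdc25b of G2/M lay above the median at 0.13. Of 7 G2/M members, 6 lay below the median of all genes, each by more than its counting interval, beside 22.1% of all genes. That share was not matched for read number, so it is not a background for genes as deeply read as these. The median of the 7 was -0.41. This was not confined to G2/M: Ccng1, Tfdp1, Cdk2, Cdk4 and Rbl1 also lay below by more than their counting intervals. The 5 G1 members had a median of -0.07, the 10 members of the G1/S transition -0.06 and the 15 measured members assigned to no phase -0.05. Phases were assigned by hand from textbook knowledge, and the difference between phases was not tested. Wee1, which also acts on Cdk1, was assigned to no phase and lay above the median at 0.09. Ccna2, counted in G2/M, also serves S phase, so the G2/M count depends on these choices.

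Mitotic cyclins and their kinase were abundant in both libraries. Ccnb1, the main mitotic cyclin gene, was at 95.4 FPKM (WT) and 66.1 FPKM (KO), a ratio of 0.693 with a 95% counting interval of 0.66 to 0.73. Ccnb2, its relative, stood at 42.0 and 30 FPKM, a ratio of 0.714. Cdk1, the kinase that both activate, was at 43.4 FPKM (WT) and 29.4 FPKM (KO), a ratio of 0.676 with an interval of 0.63 to 0.72. These genes kept nearly the same proportions to each other: Ccnb1 had 2.2 times the FPKM of Cdk1 in WT and 2.25 times in KO, and it made up 69.4% and 68.8% of the summed B cyclins. Ccna2, the cyclin of S phase and early mitosis, was less far apart, at 81.9 FPKM (WT) and 64.8 FPKM (KO) (ratio 0.791). Ccna1, the germ cell A cyclin, was near the limit of detection at 0.244 and 0.233 FPKM, which correspond to about 5 and 6 reads.

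Ccnf and Cdc25c were the members furthest apart. Ccnf encodes the F-box protein cyclin F, which serves a ubiquitin ligase and activates no CDK. It was at 13.4 FPKM (WT) and 8.22 FPKM (KO), about 730 and 550 reads, a ratio of 0.613 (counting interval 0.55 to 0.68), and 97.6% of all genes had a higher log2 ratio. Cdc25c, a phosphatase that activates Cdk1 at the entry into mitosis, was at 11.1 and 6.86 FPKM, a ratio of 0.620 (interval 0.52 to 0.74). The related phosphatase genes did not share this gap. Cdc25a, which acts earlier on Cdk2, was at 11.4 FPKM (WT) and 10.5 FPKM (KO), and Cdc25b at 4.47 and 4.54 FPKM. Wee1, the kinase that opposes CDC25 by inhibitory phosphorylation of Cdk1, was at 9.43 and 9.28 FPKM. The level of Cdc25c was therefore 1.17 times that of Wee1 in WT and 0.739 times in KO.

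Promoters were searched because mitotic promoters are known for a short element, the cell cycle genes homology region (CHR), with the letters TTTGAA. RefSeq start sites (build GRCm38.p6, not the build mm9 of the values) were matched for 31 of the 40 members, and 9 had no match: Ccna2, Ccnd1, Ccnd2, Ccne2, Cdc25c, E2f4, E2f5, Rb1 and Wee1. Windows of 300 bases, 250 before and 50 after the start, were searched on both strands. Cdk1, Ccnb2 and Ccnf had at least 2 copies on the gene strand, as did 0.814% of the 27025 genes with such a start site. Counted on either strand, at least 2 copies were found in the same 3 members and in 2.68% of these genes. These 3 are shown as the members with more than 1 copy, and the lines below give 30 bases around each copy, 5′ to 3′ on the gene strand, with TTTGAA in capitals.
Cdk1 (chr10:69352966-69352995, minus strand): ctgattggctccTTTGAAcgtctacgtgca
Cdk1 (chr10:69352910-69352939, minus strand): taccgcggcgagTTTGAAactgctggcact
Ccnb2 (chr9:70421704-70421733, minus strand): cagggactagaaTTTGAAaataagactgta
Ccnb2 (chr9:70421533-70421562, minus strand): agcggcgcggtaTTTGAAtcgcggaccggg
Ccnf (chr17:24251522-24251551, minus strand): agacagccagcgTTTGAAttcgcgtcctgg
Ccnf (chr17:24251406-24251435, minus strand): gctcccggcgcgTTTGAAaacggggcgggg
The copies nearest the start began 15 bases before it in Cdk1, 14 bases before it in Ccnf and at base 5 after it in Ccnb2. A single copy, on either strand, was found in E2f2, E2f3, E2f8, Rbl2 and Cdkn2b. At least 1 copy on either strand was thus present in 8 of 31 members and in 20.2% of the 27025 genes. A match describes letters only, and Ccnb1, which had none in this window, was as far below the median (-0.41) as Cdk1 (-0.44).

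**Figure D2:**
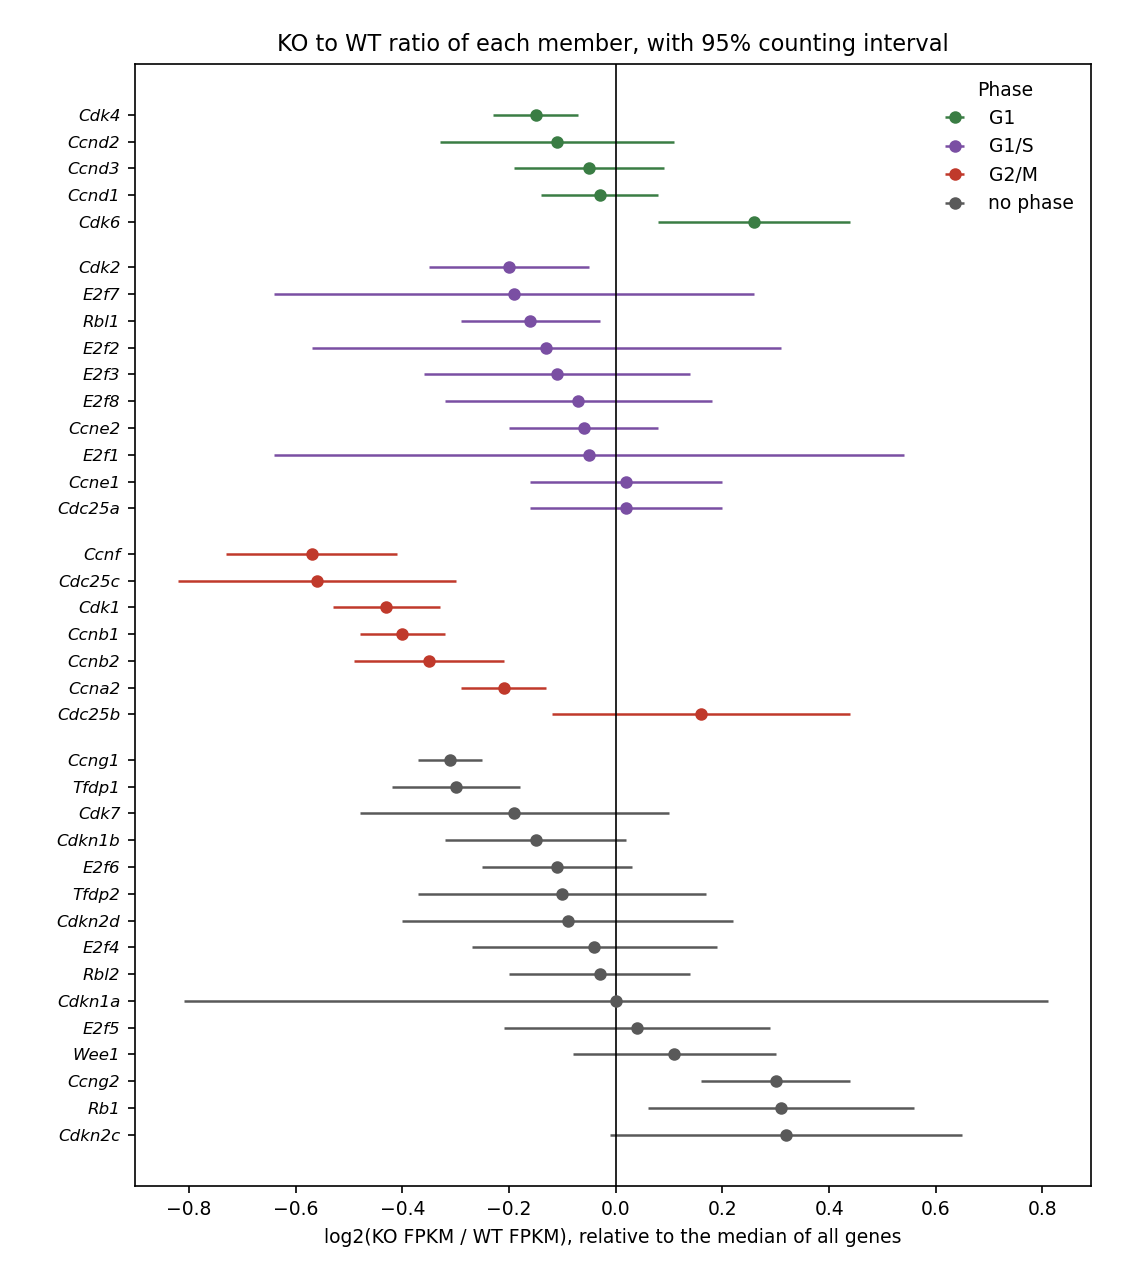
log2 of the KO to WT ratio of FPKM without a pseudocount, relative to the median of all genes, for the 37 measured members by phase, with bars for the 95% counting interval. All G2/M points except Cdc25b lie left of 0 with bars that do not reach it, while most G1 and G1/S bars cross 0.

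Cyclins and kinases of G1 and S phase lay closer to the median of all genes. The D cyclins, which link growth signals to the cycle, had similar levels. Ccnd1 was at 26.9 FPKM (WT) and 24.1 FPKM (KO), Ccnd2 at 23.8 and 20.1 FPKM, and Ccnd3 at 29.6 and 26.0 FPKM. All 3 lay below the median of all genes, by -0.04 to -0.12, each within its counting interval, and Ccnd1 moved above it with quantile normalization. Their shares of the summed D cyclins were nearly the same in the libraries, with Ccnd3 at 36.8% in WT and 37.1% in KO. The E cyclins were equally balanced: Ccne1 was at 18 and 16.6 FPKM and Ccne2 at 18.6 and 16.4 FPKM.

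Among the kinases, Cdk4 had the highest FPKM of all 40 members in both libraries, at 143 FPKM (WT) and 117 FPKM (KO) (ratio 0.820, interval 0.78 to 0.87). Its partner in function, Cdk6, was low and went the other way, at 4.42 FPKM (WT) and 4.85 FPKM (KO). The Cdk6 ratio of 1.096 had an interval of 0.97 to 1.24, which includes equal levels. Cdk4 therefore exceeded Cdk6 by 32.4 times in WT and 24.2 times in KO. Cdk2, the kinase of the E and A cyclins, was at 22.7 and 18.1 FPKM, a ratio of 0.796 (interval 0.72 to 0.88), nearer the median than Cdk1. Cdk7, which activates other CDKs and also serves transcription, was at 9.22 and 7.36 FPKM, within its counting interval of the median.

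The G-type cyclins, which are not known to drive the cycle, split. Ccng1, a p53 target, was the second most abundant member, at 101 FPKM (WT) and 74.9 FPKM (KO), a ratio of 0.739 with a counting interval of 0.71 to 0.77. Ccng2, which is linked to arrest and quiescence, was at 20.1 FPKM (WT) and 22.5 FPKM (KO), a ratio of 1.12 with an interval of 1.02 to 1.23. Relative to all genes they lay at -0.32 and 0.27, and each kept its side under all 9 other processing settings.

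CDK inhibitors were at low to moderate levels and did not differ in a common direction. Cdkn1b, which encodes p27, was the most abundant of the 6, at 17.7 FPKM (WT) and 14.6 FPKM (KO) (ratio 0.821). Cdkn1a, which encodes p21 and responds to p53, was at 1.15 and 1.05 FPKM. That is about 23 and 26 reads, and its ratio had a counting interval of 0.52 to 1.6, so that a difference of this size was not detectable at this depth. Of the INK4 genes, whose products bind Cdk4 and Cdk6, Cdkn2d was at 9.39 and 8.04 FPKM, and Cdkn2c at 5.32 and 6.05 FPKM. Cdkn2c lay 0.27 above the all-gene median, and its counting interval reached the median. Cdkn2b was at 0.933 and 0.917 FPKM. Cdkn2a, which encodes p16 and the p53 activator p19Arf and is normally silent in the embryo, was listed at 0 in both libraries. If that is a true count of 0 and not a failed estimate, 3 reads set an upper limit of 0.263 FPKM (WT) and 0.210 FPKM (KO).

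The inhibitor gene Cdkn1c, which is not among the members and encodes p57, was far more abundant than all of them, at 267 FPKM (WT) and 261 FPKM (KO).

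E2F genes ranged from 1.09 to 23.9 FPKM, and their ratios lay close to the median of all genes. The activators E2f1, E2f2 and E2f3, which switch on replication genes, were at 1.24, 1.31 and 4.26 FPKM in WT. In KO they were at 1.09, 1.09 and 3.60 FPKM. E2f1 rested on about 45 and 49 reads, and its ratio of 0.879 had a counting interval of 0.58 to 1.32. The repressive members were more abundant: E2f4 was at 10.8 and 9.58 FPKM, E2f5 at 10.1 and 9.49 FPKM, and E2f6 at 23.9 and 20.2 FPKM. E2f6 alone made up 40.7% of the summed E2F transcripts in WT and 39.6% in KO. The atypical repressors E2f7 (1.91 and 1.53 FPKM) and E2f8 (5.16 and 4.50 FPKM), which bind DNA without a DP partner, also lay within their counting intervals of the median. All 8 E2F genes were lower in KO as deposited, yet their relative log2 ratios ran only from -0.12 to 0.03, and none was outside its counting interval.

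DP partners and pocket proteins were less uniform. Tfdp1, the main dimer partner of the E2F factors, was at 36.2 FPKM (WT) and 26.9 FPKM (KO), a ratio of 0.743 (interval 0.68 to 0.81). Tfdp2 was lower in level, at 7.19 and 6.12 FPKM. Rb1, the retinoblastoma gene, was at 3.70 FPKM (WT) and 4.19 FPKM (KO), with a counting interval of the KO to WT ratio itself from 0.95 to 1.35. Relative to all genes it lay at 0.25, or at 0.31 without a pseudocount, where its counting interval did not reach the median. It overlaps a more abundant gene on the opposite strand, Rcbtb2. Rbl1, which encodes the pocket protein p107 and is itself an E2F target, was at 15.9 and 13.0 FPKM (ratio 0.818, interval 0.75 to 0.89). Rbl2, which encodes p130, was at 8.43 and 7.55 FPKM. Rb1 made up 13.2% of the summed pocket protein transcripts in WT and 16.9% in KO, and Rbl1 56.8% and 52.6%.

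**Figure D3:**
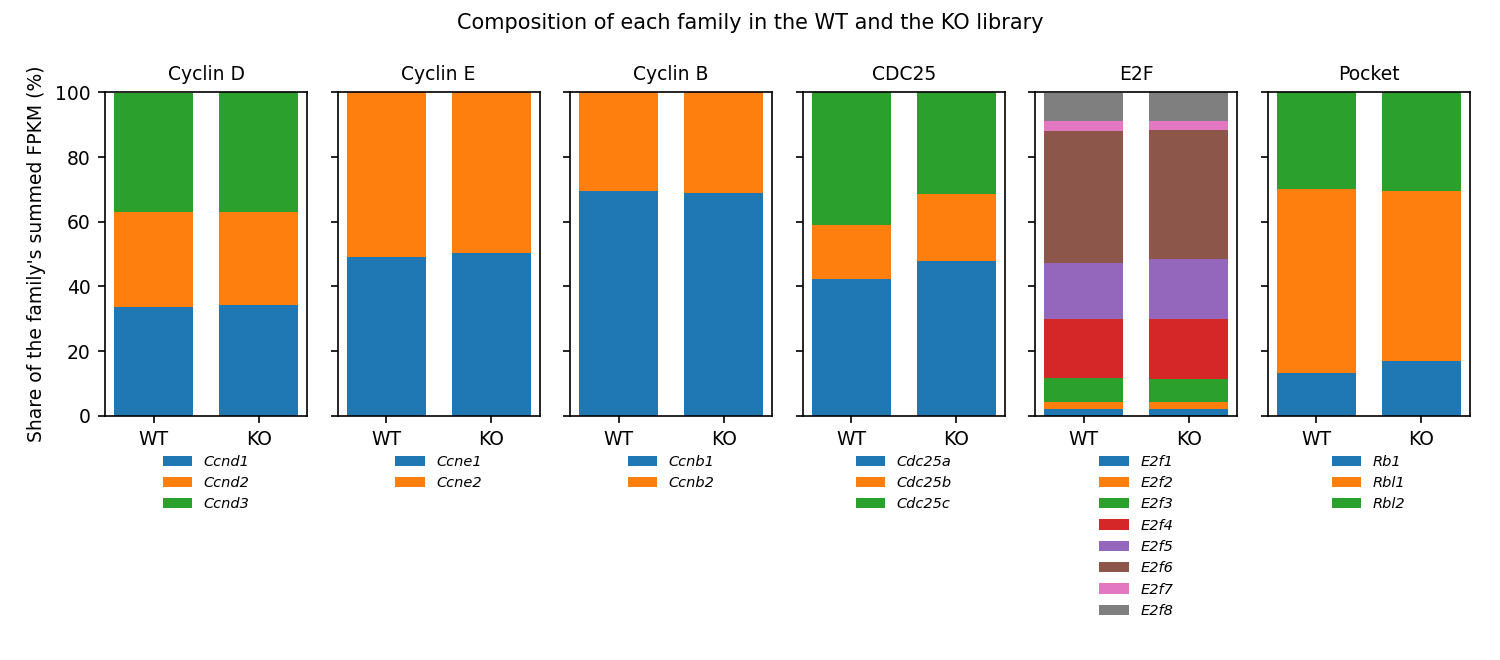
Share of each family's summed FPKM (%, stacked bars) held by each member in the WT and the KO library for the D, E and B cyclins, CDC25 phosphatases, E2F factors and pocket proteins. The cyclin and E2F bars look alike in both libraries, while Cdc25c takes 41.1% of the CDC25 bar in WT and 31.3% in KO.

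E2F sites were searched because E2F factors act through them at promoters. The consensus forms TTTCGCGC and TTTGGCGC, searched on both strands of the same windows, were found in 5 of 31 matched members. They were found in 0.929% of the 27025 genes with a RefSeq start site. No match overlapped a CHR match in these members. Each line gives 30 bases on the gene strand, with the match in capitals.
Cdk1 (chr10:69353025-69353054, minus strand): tttccgctcccTTTCGCGCtctgcgctccc
Rbl1 (chr2:157204534-157204563, minus strand): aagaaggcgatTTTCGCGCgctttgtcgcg
Tfdp1 (chr8:13338697-13338726, plus strand): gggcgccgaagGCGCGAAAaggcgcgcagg
Cdc25a (chr9:109875501-109875530, plus strand): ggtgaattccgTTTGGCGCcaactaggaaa
E2f2 (chr4:136172294-136172323, plus strand): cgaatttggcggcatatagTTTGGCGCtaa
The 5 genes did not share a position among the ratios: Cdk1 lay at -0.44, Tfdp1 at -0.30, Rbl1 at -0.16, E2f2 at -0.03 and Cdc25a at 0.00 relative to all genes.

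Other genes of the pathway, taken from lists set for this purpose, differed from list to list, and the differences between lists were not tested. Of 25 E2F target genes of S phase, 20 were below the all-gene median, with a list median of -0.18 and a range of -0.56 to 0.15. As deposited, 4 of these 25 stood 1.5-fold or more below WT in KO, against 3.60% of all genes, and 0 as far above. Cdt1, which licenses replication origins, was at 11.6 FPKM (WT) and 6.94 FPKM (KO), while Rrm1, a ribonucleotide reductase subunit gene, was at 87.8 and 85.2 FPKM. Of 20 mitotic genes, 18 lay below, with a median of -0.16, so the G2/M members, at -0.41, had a lower median than this list, a difference that was not tested. In the list of the MuvB complex, B-Myb and FoxM1, the machinery that acts at CHR promoters, 6 of 8 lay below, with a median of -0.10. Foxm1 was at 4.15 and 2.63 FPKM, and Lin37 was higher in KO, at 2.68 and 4.33 FPKM. Of 18 other regulators of CDK activity, 11 lay below and 7 above (median -0.17).

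**Figure D4:**
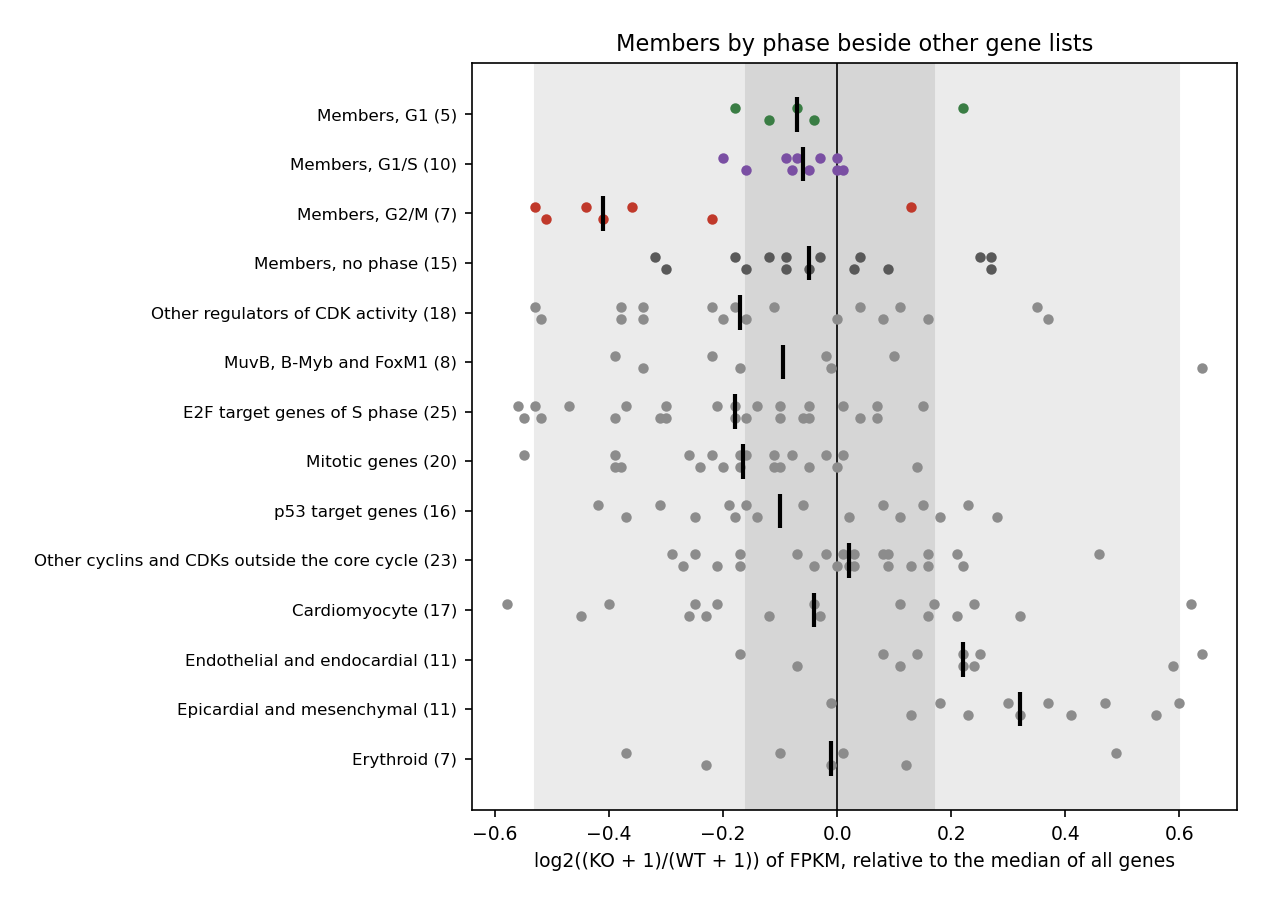
log2((KO + 1)/(WT + 1)) of FPKM relative to the median of all genes for measured members by phase (coloured points) and genes of other lists (grey points), with a black bar for each median and the number of genes in brackets. Pale and darker bands hold the central 95% of all genes, -0.53 to 0.60, and the central 50%, -0.16 to 0.17. The G2/M bar, at -0.41, lies left of the darker band.

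Markers of several cell types also differed between the libraries. Of 11 epicardial and mesenchymal genes, 10 were above the all-gene median, with summed levels of 478 FPKM (WT) and 587 FPKM (KO), and of 11 endothelial genes 9 lay above (275 and 283 FPKM). Of 17 cardiomyocyte genes 7 lay above and 10 below. Of 7 measured erythroid genes 3 lay above and 4 below, and the 10 with a row summed to 3287 and 3364 FPKM. Of 7 measured leukocyte genes 6 lay above (17.6 and 31.2 FPKM for all 9). The liver and yolk sac list summed to 0.832 FPKM in WT, where 4 of its 8 genes were listed at 0, and to 21.8 FPKM in KO, where 1 was. Most of the KO sum came from Afp, the alpha-fetoprotein gene, at 0.11 FPKM (WT) and 16.6 FPKM (KO). In bulk RNA, fewer dividing cells and less RNA of these genes per cell cannot be told apart, and the part of cell composition in the lower G2/M values was not tested.

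Reads of some members may be shared with other loci. In GENCODE vM21, 11 of the 40 members have an exon that overlaps a coding gene on the opposite strand. Processed copies of Ccnb1, Ccnb2 and Ccnd3 are annotated in GENCODE, and whether reads were split among copies is not given in the sources used here. Ccna2 overlaps Exosc9 on the opposite strand, which was at 42.4 FPKM (WT) and 32.3 FPKM (KO), and Cdk4 overlaps Tspan31, at 35.6 and 26.9 FPKM. Rb1 overlaps Rcbtb2, at 21.3 and 20.8 FPKM, and Rbl2 overlaps Aktip, at 13.5 and 10.7 FPKM, both above the level of the member itself. The other 7 of these members are Ccnd1, Ccnd3, Ccne2, Cdc25b, Cdc25c, Cdk2 and E2f5. The libraries were strand-specific, but whether the counting used strand is not given either, so the values of all 11 are less certain than that of Cdk1, which has no overlapping neighbour.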

How the data were processed

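The authors deposited 1 FPKM value per gene symbol and library, made on mm9 with Cufflinks 2.0.2, TopHat2 2.0.6 and Bowtie2 2.0.2, per the submitters' processing notes; the annotation and options are not given in the sources used here. Per the labels' protocols, 500 ng of RNA and 15 PCR cycles were used, and 100 bases were read from 1 end. Log2 ratios used a pseudocount of 1 FPKM and genes averaging 1 FPKM or more. No p-value was computed. Members and lists were chosen with earlier results of these data known, and classes and phases were assigned by hand. All members are named; of other lists, genes of highest mean or of highest or lowest ratio. Depth came from genes with 1 transcript in GENCODE vM21, over 500 nt and below 0.5 FPKM. Reads per member used the median length of coding transcripts, and their intervals are approximate (normal approximation on the log scale); PCR copies make them too narrow. The counting comparison covered 10330 genes with a length and values above 0. Lists were compared by counts and medians. Alternatives were pseudocounts of 0.1 and 5, no filter, a minimum mean of 5, and 5 scalings (quantile normalization; median centring; equal totals without globins and the 50 most abundant genes; a trimmed mean leaving out, at each end, 5% of levels and 30% of log ratios; upper quartile). The estimate of depth from whole-read steps was tested on simulated data. Python 3.11.15, numpy 2.4.6, pandas 2.3.3 and matplotlib 3.10.9 were used.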

Additional observations from a re-analysis of the deposited data

How the results depend on the processing

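No paired analysis was possible because WT and KO have 1 library each, so that none could be left out either. The count of members below the median of all genes stayed between 22 of 28 (minimum mean of 5 FPKM) and 31 of 39 (no filter), and was 26 to 28 of 37 otherwise. Pseudocounts of 0.1 and 5 gave the members a median, relative to all genes, of -0.10 and -0.06; it was -0.13 when low genes were kept, -0.10 at a minimum mean of 5, and -0.09 by upper quartile, by trimmed mean, by quantiles and by equal totals. The G2/M members, at -0.41, had medians of -0.40 and -0.37 under these pseudocounts, -0.47 when low genes were kept and -0.40 at the higher minimum. By upper quartile and by trimmed mean it was -0.40, by quantiles -0.35 and by equal totals -0.39. The count of members at least 1.5-fold lower was 0, in place of 2, with a pseudocount of 5 and under all 5 scalings, which bring the median of all genes near 0. Of 26 members below the median 24 kept that side under every setting in which they were measured, the exceptions being Ccnd1 and E2f2. Of 11 above it 6 did, the exceptions being Ccne1, Cdkn1a, Cdc25a, E2f1 and E2f5. Apart from Cdkn2a, listed at 0 in both libraries, depth limits Ccna1, Cdkn1a, Cdkn2b and E2f1 most, each with fewer than 50 reads per library.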

Other observations

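Other cyclins, CDKs and their partners, most of which work outside the core cycle, mainly in transcription, lay around the median of all genes. Of 23 measured, 10 lay below it and 13 above, with a median of 0.02. Ccni was the most abundant, at 72.9 FPKM (WT) and 56.8 FPKM (KO). Cdk16 was lowest in ratio, at 17.4 and 13.0 FPKM, and Cdk11b highest, at 9.06 and 11.8 FPKM.

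Of 16 measured p53 target genes, 9 were below the all-gene median and 7 above, with a median of -0.10. Plk2, the most abundant, was at 94.2 FPKM (WT) and 96.9 FPKM (KO), and Sesn2 at 1.67 and 0.847 FPKM. Of 12 measured genes of mitogen signalling to cyclin D, 5 lay below the all-gene median and 7 above, with a median of 0.06. The lowest in ratio was Etv5, an ETS factor downstream of FGF signals, at 6.34 FPKM (WT) and 3.74 FPKM (KO). The highest was Fos, at 1.31 and 1.69 FPKM.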
